A study of Arabidopsis thaliana with 5 samples.

Results

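Expansins and xyloglucan endotransglucosylase/hydrolases (XTHs) were examined in root RNA-seq of Arabidopsis thaliana, in plants labelled GFP-GrxS5 and in the wild type Col-0. The genes were all those whose symbol in the files was EXPA, EXPB, EXLA, EXLB or XTH followed by a number, with 2 EXPA loci left out by that definition. It gave 60 of the 33557 listed genes: 18 alpha-expansins (EXPA), 5 beta-expansins (EXPB), 3 expansin-like A genes (EXLA), 1 expansin-like B gene (EXLB) and 33 XTHs. The GFP-GrxS5 group had 2 libraries and the Col-0 group 3. GrxS5 is a plant glutaredoxin, a small thiol redox protein, and in the label GFP (green fluorescent protein) is joined to it. The sources used here do not give the promoter of the construct, the number of transgenic lines, the age of the plants or their medium. All 5 libraries are labelled root, while the extraction text speaks of both roots and shoots. The comparison was made to find genes that GrxS5 represses.

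Plant cells grow by letting turgor stretch a wall of cellulose microfibrils embedded in xyloglucan and pectin. Expansins loosen this network in acid conditions without cutting it, at contacts between cellulose and xyloglucan. XTHs cut xyloglucan chains and join the new end to another chain, or in some members to water. In roots both families act in the elongation zone, in root hairs and where lateral roots push through outer tissue, and several XTHs act in xylem.

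Each library has an FPKM value per gene (fragments scaled to transcript length and to library size), so levels can be compared between genes. The depth, read from the FPKM of single fragments, was about 4220000 and 3240000 fragments in the GFP-GrxS5 libraries and about 4310000, 3740000 and 4090000 in the Col-0 libraries. GrxS5 stood at 103 and 124 FPKM in GFP-GrxS5 roots, against 3.06, 4.14 and 3.23 FPKM in Col-0 roots. Markers of root hairs, root cap and endodermis were detected in all libraries. Transcripts of 12 shoot photosynthesis genes were present too, with summed levels of 1441 and 1439 FPKM in GFP-GrxS5 and 624, 603 and 711 FPKM in Col-0. Of the 10 tested, 9 were past the test and higher in GFP-GrxS5, and none of the 12 was at 0 in all libraries. In bulk tissue, a change in the number of cells of a type and a change in RNA per cell cannot be told apart. The labels do not say that the libraries came from separate plants. The p-values therefore measure only how these libraries scatter, which may be technical scatter. They name 2 library kits and 2 sequencers without assigning them to libraries, so any effect of kit or sequencer and that of genotype cannot be told apart.

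Promoter sequence was read for the expansin and XTH genes because TGA transcription factors, which partner with this class of glutaredoxins, bind DNA at a TGACG core. All 60 genes were matched by identifier to the RefSeq annotation of TAIR10.1, and a window of 250 bases before and 50 bases after each annotated start was searched on both strands. TGACG was found in 11 of the 60 windows (18.3%), against 23.1% of 27443 windows of protein-coding genes. It was found in 1 of the 12 genes that passed the expression test given below. Of the other letters searched, TGACGTCA, which contains TGACG, was in 0 of 60 windows, against 0.627% of all windows. The G-box CACGTG was in 1 (1.67%, against 7.68%) and the auxin response element TGTCTC in 7 (11.7%, against 14.2%). The brassinosteroid response element CGTGTG was in 8 (13.3%, against 6.52%). Each of these other motifs was found in 0 of the 12 genes that passed. The shares were not tested. CACGTG and CGTGTG can overlap each other. A match is a string of letters in a window and does not show binding.

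The 250 bases before the annotated start are printed, 5′ to 3′ on the gene's strand, for the member that fell most, the XTH that fell and XTH15, an XTH that rose. Capitals mark any of the motifs, which here is 1 TGACG, 6 bases before the start of XTH31. The windows are on the minus strand of TAIR10.1, at chr2:918672-918921 for EXPA15, chr3:16448845-16449094 for XTH31 and chr4:8138393-8138642 for XTH15.
EXPA15: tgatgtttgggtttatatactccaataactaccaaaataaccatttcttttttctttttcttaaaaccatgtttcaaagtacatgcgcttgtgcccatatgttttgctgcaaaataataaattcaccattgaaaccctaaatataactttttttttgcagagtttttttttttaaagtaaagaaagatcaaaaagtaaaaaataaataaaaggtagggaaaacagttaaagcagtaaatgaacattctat
XTH31: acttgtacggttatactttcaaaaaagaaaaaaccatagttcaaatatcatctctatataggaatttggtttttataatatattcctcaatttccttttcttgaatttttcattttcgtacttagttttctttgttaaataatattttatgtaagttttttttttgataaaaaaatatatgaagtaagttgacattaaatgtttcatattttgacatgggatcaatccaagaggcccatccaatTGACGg
XTH15: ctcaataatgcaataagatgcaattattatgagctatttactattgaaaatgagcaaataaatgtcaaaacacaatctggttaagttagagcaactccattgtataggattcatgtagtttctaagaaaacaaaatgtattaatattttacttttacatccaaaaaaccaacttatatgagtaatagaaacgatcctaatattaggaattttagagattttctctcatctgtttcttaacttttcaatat

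The expansin-like genes held TGACG in 4 of 4 windows, beside 23.1% of all windows, and none of the 4 passed the expression test. This group was not set apart in the plan of the search, and its share was not tested. The EXLA genes are also close copies of each other (82.3% to 86.0% coding identity), so the 4 windows are not unrelated cases. The matches are printed with up to 12 bases on either side and with TGACG, or CGTCA where it lies on the opposite strand, in capitals, from chr3:16896059-16896087 (plus strand) for EXLA1, chr4:17979826-17979854 (minus strand) for EXLA2, chr3:16892452-16892468 (plus strand) for EXLA3 and chr4:9583357-9583385 (minus strand) for EXLB1. The EXLA2 window carries 2 abutting copies and also lies in another annotated gene, AT4G38401. The EXLA3 match is at the far edge of its window.
EXLA1: acataccagctaTGACGtgacagtgtgtg
EXLA2: ctatataTGACGTGACGtgtgctgtgatg
EXLA3: CGTCAcccacccattag
EXLB1: agtaaaaaatagTGACGatgctcgatcaa

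Of the 60 genes, 47 were tested (FPKM of at least 1 in at least 2 libraries), and none of them owed this to one group: the lowest value of any tested member in any library was 2.11 FPKM. The remaining 13 were below 1 FPKM in all 5 libraries. EXPA2, known from germinating seeds, EXPA21, EXPB4, EXPB6, XTH1, XTH2, XTH3, XTH6 and XTH25 were listed at 0 in all libraries. XTH11 had 0.809 and 0.349 FPKM in GFP-GrxS5, against 0.263, 0 and 0.278 FPKM in Col-0. XTH29 was at 0 and 0.296 FPKM in GFP-GrxS5 and at 0 in the Col-0 libraries. EXPA5, an expansin known to respond to brassinosteroids, was listed at 0 in GFP-GrxS5, against 0.186, 0 and 0 FPKM in Col-0. EXPA16 was listed at 0 in GFP-GrxS5, against 0.224, 0 and 0.236 FPKM in Col-0. At this depth these values stand for about 1 to 4 fragments or none, and no difference was detectable.

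The GFP-GrxS5 and Col-0 libraries were compared for all 19693 tested genes on log2(FPKM + 1) with limma, and a gene passed at a p under 0.05 after Benjamini-Hochberg adjustment over all of them (the limma adjusted p of each gene below). Log2 differences below are GFP-GrxS5 minus Col-0 on that scale. Adding 1 shrinks the differences of genes with low FPKM. Of the 47 tested expansin and XTH genes 12 passed (25.5%), beside 7.08% of all tested genes. The 8 that rose were all XTHs: XTH24, XTH15, XTH13, XTH30, XTH14, XTH27, XTH7 and XTH4. The 4 that fell were EXPA15, EXPA4 and EXPB3 among the expansins, and XTH31. Among 26 tested XTHs, 8 rose, 1 fell and 17 did not pass by limma, and at an unadjusted p under 0.05 the counts were 14 higher and 2 lower. Among 21 tested expansins, 0 rose, 3 fell and 18 did not pass by limma, and at an unadjusted p under 0.05 the counts were 1 higher and 5 lower. Over all tested genes 4.73% rose and 2.35% fell, and at an unadjusted p under 0.05 14.1% were higher and 10.2% lower. These shares were not matched for level: the tested members had a median of 31.8 FPKM, while the test admitted genes from 1 FPKM. With the filter at 5 FPKM, 996 of 16236 tested genes rose and 516 fell, beside 8 and 5 members. The median log2 difference was 0.41 for the XTHs and -0.09 for the expansins, beside 0.01 for all tested genes. The difference between the families was not tested.

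**Figure D1:**
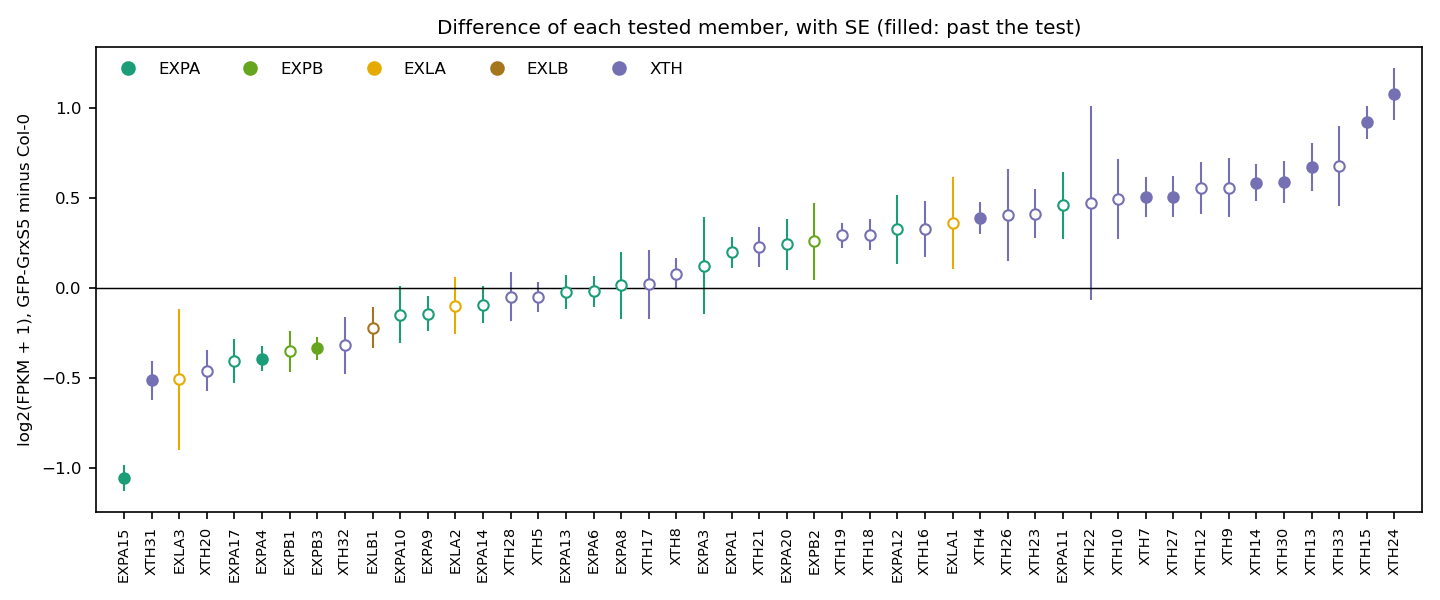
Log2(FPKM + 1) difference, GFP-GrxS5 minus Col-0 (y axis), with its SE from limma, for the 47 tested genes in rising order (x axis). Colours give the family and filled points passed the test. XTHs make up the right end, with XTH24 at 1.08, and EXPA15 stands alone at the left with -1.05.

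Both GFP-GrxS5 libraries lay above all Col-0 libraries in 16 of the 26 tested XTHs and below them in 3. For the expansins these counts were 4 and 6 of 21. Over all tested genes 42.8% had groups that did not overlap, 22.6% lying above and 20.3% below. Quantile normalization gave 6 members higher and 5 lower (54.5% of calls higher, against 66.7% without it, beside 54.9% and 66.9% for all genes). The number of members called depended on single libraries. Leaving out GFP-GrxS5 replicate 1 gave 1 higher and 1 lower member, and leaving out GFP-GrxS5 replicate 2 gave 2 higher and 1 lower. Leaving out Col-0 replicate 1 gave 3 higher and 4 lower, Col-0 replicate 2 gave 4 and 1, and Col-0 replicate 3 gave 6 and 1. Dropping the variance trend from limma left 2 higher and 1 lower.

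Alpha-expansins are the family that acts on most growing walls of Arabidopsis. EXPA15 (AT2G03090; TAIR10 chromosome 2, 916854 to 918643) had 105 and 103 FPKM in GFP-GrxS5, against 225, 222 and 203 FPKM in Col-0. The groups were far apart, with the GFP-GrxS5 libraries nearly equal. The level averaged 104 ± 1.03 FPKM in GFP-GrxS5 and 217 ± 11.7 FPKM in Col-0 (SD, n = 2 and n = 3), and it fell by 1.05 (SE 0.07) on the log2 scale (limma adjusted p = 6.45e-04). It was called under all 13 alternatives tried (limma adjusted p from 5.62e-04 to 0.0157). Among the 18 alpha-expansins examined, EXPA15 ranked 4 by group mean in GFP-GrxS5 and 2 in Col-0. It held 13.0% of their summed FPKM in GFP-GrxS5 and 21.4% in Col-0. The 2 EXPA loci left out do not enter these ranks, shares and sums.

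EXPA4 (AT2G39700, chromosome 2, 16543832 to 16545584) had the highest mean of the 18 alpha-expansins examined in both groups. It had 187 and 184 FPKM in GFP-GrxS5, against 228, 247 and 255 FPKM in Col-0. The groups did not overlap. It fell by 0.39 (SE 0.07) on the log2 scale (limma adjusted p = 0.0217). Leaving out Col-0 replicate 2, Col-0 replicate 3 or either GFP-GrxS5 library ended the call (limma adjusted p from 0.072 to 0.104, and 0.0146 to 0.142 across alternatives). EXPA17 and EXPA14 are lateral root expansins downstream of the transcription factor LBD18. EXPA17 had 117 and 122 FPKM in GFP-GrxS5, against 133, 175 and 172 FPKM in Col-0, without overlap, and did not pass (log2 difference -0.41, SE 0.12; limma adjusted p = 0.0966). It passed without Col-0 replicate 1, its lowest Col-0 library (log2 difference -0.53; limma adjusted p = 0.0189). EXPA14 had 62.8 and 63.6 FPKM in GFP-GrxS5, against 75.2, 67.6 and 60.3 FPKM in Col-0. These ranges overlapped, and the log2 difference was -0.09 (SE 0.10; limma adjusted p = 0.634).

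EXPA9 had 109.9 and 133 FPKM in GFP-GrxS5 and 142, 126 and 132 FPKM in Col-0, again with overlap (log2 difference -0.14, SE 0.10; limma adjusted p = 0.432). EXPA1, which acts in lateral root founder cells, had 71.8 and 68.0 FPKM in GFP-GrxS5, against 57.3, 59.1 and 66.3 FPKM in Col-0. It lay above Col-0 without passing (log2 difference 0.20, SE 0.09; limma adjusted p = 0.223). EXPA11 had 25.4 and 27.4 FPKM in GFP-GrxS5, against 14.2, 21.2 and 22.3 FPKM in Col-0 (log2 difference 0.46, SE 0.19; limma adjusted p = 0.186). EXPA1 was named for its role and EXPA11 for the highest difference among the expansins tested here, both after their values were seen. The other 7 tested alpha-expansins, EXPA3, EXPA6, EXPA8, EXPA10, EXPA12, EXPA13 and EXPA20, did not pass, with log2 differences between -0.15 and 0.33. EXPA20 shares most of its length with AT4G38215, a noncoding RNA on the opposite strand that was too low to be tested. The sources used here do not say whether strand was used in counting. Summed over the 18 EXPA genes examined, transcripts stood at 792 and 811 FPKM in GFP-GrxS5, against 985, 1026 and 1025 FPKM in Col-0. This sum mostly follows its most abundant genes. Over the 14 tested EXPA genes the median log2 difference was -0.02, with 6 above 0 and 8 below.

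Beta-expansins are a smaller branch that in grasses includes pollen wall-loosening proteins. EXPB3 (AT4G28250; chromosome 4, 14000038 to 14002069) was the most abundant of all 60 genes, with 319 and 302 FPKM in GFP-GrxS5, against 405, 382 and 388 FPKM in Col-0. The groups did not overlap. It fell by 0.33 (SE 0.07) on the log2 scale (limma adjusted p = 0.0263). The call was lost without any 1 of the 5 libraries (limma adjusted p from 0.0767 to 0.117, and 0.0143 to 0.164 across alternatives). EXPB3 held 83.6% of the summed EXPB FPKM in GFP-GrxS5 and 84.3% in Col-0. EXPB1 had 50.7 and 47.6 FPKM in GFP-GrxS5, against 72.9, 58.4 and 58.4 FPKM in Col-0, without overlap, and did not pass (log2 difference -0.35, SE 0.11; limma adjusted p = 0.116). EXPB2 had 14.0 and 9.50 FPKM in GFP-GrxS5, against 7.81, 11.7 and 9.29 FPKM in Col-0 (log2 difference 0.26, SE 0.21; limma adjusted p = 0.498).

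The expansin-like genes share the expansin fold without shown wall-loosening activity, and by limma 0 of the 4 passed, with 0 at an unadjusted p under 0.05. EXLB1 had 20.4 and 21.6 FPKM in GFP-GrxS5, against 22.0, 27.1 and 25.1 FPKM in Col-0 (log2 difference -0.22; limma adjusted p = 0.291). EXLA2 had 15.1 and 12.2 FPKM in GFP-GrxS5 and 12.5, 16.9 and 14.6 FPKM in Col-0 (log2 difference -0.10; limma adjusted p = 0.752). EXLA3 had 5.90 and 12.5 FPKM in GFP-GrxS5 and 7.60, 18.8 and 14.1 FPKM in Col-0 (log2 difference -0.51, SE 0.39; limma adjusted p = 0.472). EXLA1, its neighbour on chromosome 3, had 18.4 and 26.9 FPKM in GFP-GrxS5 and 12.1, 22.3 and 18.4 FPKM in Col-0 (log2 difference 0.36, SE 0.26; limma adjusted p = 0.432). In both EXLA1 and EXLA3 GFP-GrxS5 replicate 2 was above replicate 1 and Col-0 replicate 1 was the lowest Col-0 library. EXLA1 shares its listed locus with the histone gene H2B (AT3G45980), at 267 to 299 FPKM. On TAIR10.1 EXLA1 and this gene overlap by 22 bases on opposite strands. The level of EXLA1 is therefore uncertain, to an extent that was not tested.

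**Figure D2:**
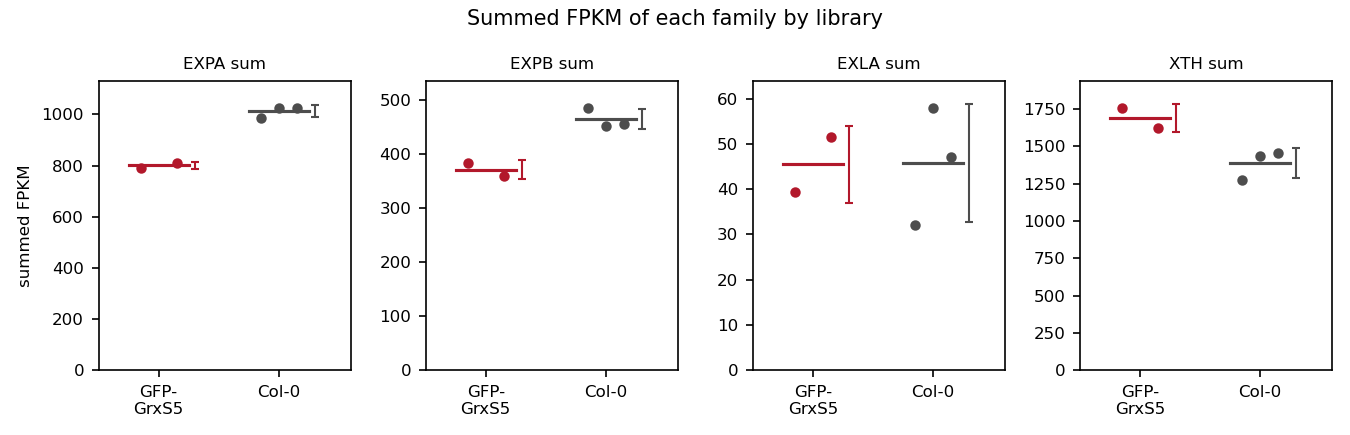
Summed FPKM of all examined members of a family (y axis, from 0) in each library. Points are libraries, with a line at the group mean and a bar of 1 SD beside it. The EXPA and EXPB sums are lower and the XTH sum is higher in both GFP-GrxS5 libraries than in all Col-0 libraries, and the EXLA sums overlap. A sum mostly follows the most abundant genes of its family.

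XTH transcripts summed to 1760 and 1624 FPKM in GFP-GrxS5, against 1277, 1433 and 1458 FPKM in Col-0. XTH24 (AT4G30270; chromosome 4, 14819192 to 14820592), first described as a meristem transcript under the name MERI5, had 26.8 and 21.3 FPKM in GFP-GrxS5, against 9.64, 11.0 and 11.9 FPKM in Col-0. The lower GFP-GrxS5 library was still well above the highest Col-0 library. The level averaged 24.0 ± 3.85 FPKM in GFP-GrxS5 and 10.8 ± 1.13 FPKM in Col-0 (SD, n = 2 and n = 3), and it rose by 1.08 (SE 0.14) on the log2 scale (limma adjusted p = 0.00716). Without GFP-GrxS5 replicate 1 the call was lost (log2 difference 0.92; limma adjusted p = 0.0644, and 0.00521 to 0.0644 across alternatives).

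XTH15 (AT4G14130; chromosome 4, 8137051 to 8138281) had 111 and 118 FPKM in GFP-GrxS5, against 54.0, 62.4 and 63.5 FPKM in Col-0. The groups were far apart. The level averaged 114 ± 4.65 FPKM in GFP-GrxS5 and 60.0 ± 5.19 FPKM in Col-0 (SD, n = 2 and n = 3), and it rose by 0.92 (SE 0.09) on the log2 scale (limma adjusted p = 0.00252). It was called under all 13 alternatives tried (limma adjusted p from 0.0021 to 0.0316). On TAIR10.1 the annotated XTH15 overlaps AT4G14120 on the opposite strand by 382 bases. That gene had 2.77 and 2.39 FPKM in GFP-GrxS5, against 3.60, 5.22 and 3.80 FPKM in Col-0. XTH16, with 80.5% coding identity the closest copy of XTH15, had 27.7 and 39.3 FPKM in GFP-GrxS5 and 28.2, 26.8 and 23.5 FPKM in Col-0. It did not pass (log2 difference 0.33, SE 0.16; limma adjusted p = 0.25).

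Among XTHs of roots, XTH14 (AT4G25820; chromosome 4, 13130297 to 13131788), whose protein has been shown to join xyloglucan chains, had 142 and 139 FPKM in GFP-GrxS5, against 90.3, 84.2 and 107 FPKM in Col-0. The groups did not overlap, and it rose by 0.59 (SE 0.10) on the log2 scale (limma adjusted p = 0.0197). Its call was lost on leaving out Col-0 replicate 1, Col-0 replicate 2 or either GFP-GrxS5 library (limma adjusted p from 0.052 to 0.113, and 0.0137 to 0.113 across alternatives). XTH26, a root hair XTH, had 8.56 and 4.49 FPKM in GFP-GrxS5, against 4.97, 4.71 and 3.82 FPKM in Col-0, with overlap (log2 difference 0.40, SE 0.26; limma adjusted p = 0.377). XTH21, needed for normal root length, had 25.9 and 23.5 FPKM in GFP-GrxS5, against 19.4, 23.1 and 20.4 FPKM in Col-0 (log2 difference 0.23, SE 0.11; limma adjusted p = 0.262). XTH17 had unequal values in the GFP-GrxS5 libraries, 80.4 and 47.4 FPKM, which lie on either side of 59.6, 61.9 and 60.9 FPKM in Col-0. XTH26, XTH21 and XTH17 were named after their values were seen.

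XTH13 (AT5G57540; chromosome 5, 23302996 to 23304049) had 24.1 and 20.1 FPKM in GFP-GrxS5, against 13.0, 15.1 and 12.4 FPKM in Col-0. It rose by 0.67 (SE 0.13) on the log2 scale, without overlap (limma adjusted p = 0.0281). Its call was lost on leaving out Col-0 replicate 1, Col-0 replicate 3 or either GFP-GrxS5 library (limma adjusted p from 0.0764 to 0.15, and 0.0216 to 0.15 across alternatives). Its neighbour XTH12 had 43.8 and 35.5 FPKM in GFP-GrxS5, against 26.5, 22.9 and 30.5 FPKM in Col-0. XTH12 did not overlap between groups either, and did not pass (log2 difference 0.56, SE 0.14; limma adjusted p = 0.0634). The coding sequences of XTH12 and XTH13 were 89.4% identical, the closest of 879 pairs within the expansins and within the XTHs. A stretch of 90 coding bases is printed to show how closely the copies run, from coding base 32 of XTH12 (chromosome 5) and coding base 29 of XTH13 (chromosome 5), with the 14 differing bases in capitals. The sources used here do not say how reads shared by such copies were split, so the values of the single genes are uncertain.
XTH12: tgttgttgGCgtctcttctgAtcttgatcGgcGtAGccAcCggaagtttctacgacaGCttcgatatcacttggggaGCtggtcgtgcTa
XTH13: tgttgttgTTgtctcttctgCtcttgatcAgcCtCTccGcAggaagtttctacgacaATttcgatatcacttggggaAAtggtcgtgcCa

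**Figure D3:**
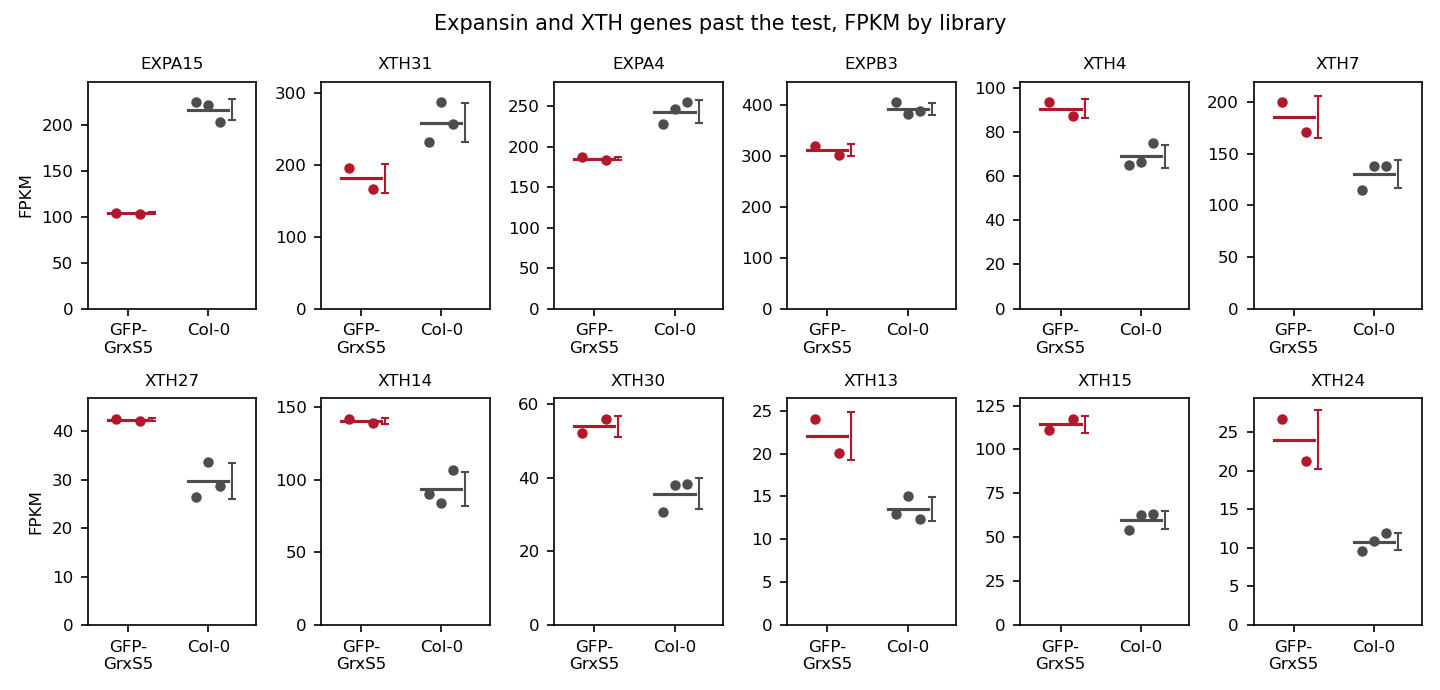
FPKM (y axes, each from 0) of the 12 expansin and XTH genes that passed the test, in GFP-GrxS5 and Col-0 libraries, in order of their log2 difference. Points are libraries, lines are group means and bars beside them 1 SD. The groups do not overlap in any of the 12, beside 42.8% of all tested genes. The 12 were chosen by the test, so this adds nothing to it. EXPA15 is lowest relative to Col-0 and XTH24 highest.

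XTH31 and XTH32 form a branch of the family with xyloglucan-cutting activity known from XTH31. XTH31 (AT3G44990; chromosome 3, 16446975 to 16448764), which by group mean ranked 3 among XTHs in GFP-GrxS5 and 1 in Col-0, had 196 and 167 FPKM in GFP-GrxS5, against 232, 288 and 258 FPKM in Col-0. The groups did not overlap, and it fell by 0.51 (SE 0.11) on the log2 scale (limma adjusted p = 0.0352). Leaving out Col-0 replicate 2, Col-0 replicate 3 or either GFP-GrxS5 library ended the call (limma adjusted p from 0.0803 to 0.174, and 0.0276 to 0.174 across alternatives). The XTH31 call was also lost without the filter (limma adjusted p = 0.0636). XTH31 held 10.7% of the summed XTH FPKM in GFP-GrxS5 and 18.7% in Col-0. XTH32 had 9.73 and 11.0 FPKM in GFP-GrxS5, against 11.5, 15.8 and 12.6 FPKM in Col-0, without overlap and without passing (log2 difference -0.32, SE 0.16; limma adjusted p = 0.267). XTH20, which acts with XTH19 in the healing of cut stems, had 22.0 and 19.2 FPKM in GFP-GrxS5, against 28.1, 26.7 and 31.3 FPKM in Col-0 (log2 difference -0.46, SE 0.11; limma adjusted p = 0.0549). It passed under quantile normalization (limma adjusted p = 0.0489) and with the filter at 5 FPKM (0.044).

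XTH27 and XTH30 belong to another branch, with XTH28 and XTH29. XTH30 (AT1G32170; chromosome 1, 11575320 to 11577927) had 52.0 and 56.0 FPKM in GFP-GrxS5, against 30.8, 37.8 and 38.4 FPKM in Col-0. It rose by 0.59 (SE 0.11) on the log2 scale (limma adjusted p = 0.0261), which no longer held without Col-0 replicate 2 or either GFP-GrxS5 library (limma adjusted p from 0.053 to 0.14, and 0.0219 to 0.14 across alternatives). XTH27 (AT2G01850; chromosome 2, 385199 to 387344), which acts in developing tracheary elements of leaves, had 42.6 and 42.2 FPKM in GFP-GrxS5, against 26.5, 33.7 and 28.7 FPKM in Col-0. It rose by 0.51 (SE 0.11) on the log2 scale (limma adjusted p = 0.0425), which no longer held on leaving out Col-0 replicate 1, Col-0 replicate 3 or either GFP-GrxS5 library (limma adjusted p from 0.102 to 0.162, and 0.0331 to 0.162 across alternatives). The XTH27 call was also lost without the filter (limma adjusted p = 0.0649) and under quantile normalization (limma adjusted p = 0.0536). XTH28, known from stamen filaments, had 35.9 and 30.6 FPKM in GFP-GrxS5 and 29.4, 34.9 and 39.3 FPKM in Col-0. Its groups overlapped (log2 difference -0.05, limma adjusted p = 0.865).

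XTH4 and XTH9 are known from stems, where they act in cambium and wood formation. XTH4 (AT2G06850; chromosome 2, 2763526 to 2765720) had 93.4 and 87.3 FPKM in GFP-GrxS5, against 65.0, 66.4 and 75.0 FPKM in Col-0. It rose by 0.39 (SE 0.09) on the log2 scale (limma adjusted p = 0.0434). Its call was lost on leaving out Col-0 replicate 1, Col-0 replicate 2 or either GFP-GrxS5 library (limma adjusted p from 0.116 to 0.177) and under both other scalings, and adjusted p ran from 0.0382 to 0.177 across alternatives. XTH9, which by group mean ranked 1 among XTHs in GFP-GrxS5 and 2 in Col-0, had 271 and 217 FPKM in GFP-GrxS5, against 136, 162 and 201 FPKM in Col-0. The groups did not overlap, yet the spread within each was wide, and it did not pass (log2 difference 0.56, SE 0.16; limma adjusted p = 0.0897). It passed without Col-0 replicate 3, its highest Col-0 library (log2 difference 0.70; limma adjusted p = 0.0471). XTH7 (AT4G37800; chromosome 4, 17775474 to 17777397) had 199.8 and 171 FPKM in GFP-GrxS5, against 115, 138 and 138 FPKM in Col-0. It rose by 0.51 (SE 0.11) on the log2 scale (limma adjusted p = 0.0368), a call lost without any 1 of the 5 libraries (limma adjusted p from 0.0679 to 0.175, and 0.0316 to 0.175 across alternatives). Without the filter the XTH7 call was lost too (limma adjusted p = 0.0641). XTH8 had 89.6 and 104 FPKM in GFP-GrxS5 and 94.4, 92.7 and 86.7 FPKM in Col-0, with overlap (log2 difference 0.08, limma adjusted p = 0.622).

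Of the remaining XTHs, XTH33, which carries a membrane anchor, had 14.3 and 10.8 FPKM in GFP-GrxS5, against 8.39, 5.41 and 8.87 FPKM in Col-0. Its log2 difference of 0.68 (SE 0.22) was the highest among members that did not pass (limma adjusted p = 0.117). XTH10 lay above Col-0 in both GFP-GrxS5 libraries at 5.43 and 4.42 FPKM, against 4.12, 2.50 and 3.11 FPKM in Col-0. XTH5 overlapped between groups, with 32.0 and 33.1 FPKM in GFP-GrxS5 and 32.7, 33.6 and 34.6 FPKM in Col-0. XTH10 and XTH5 did not pass, with log2 differences of 0.49 and -0.05 (limma adjusted p = 0.224 and 0.77).

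Several XTHs lie beside each other on the chromosomes. XTH24 lies 5215 bases from XTH18, and XTH18 lies 1664 bases from XTH19. XTH18, which affects primary root growth, had 85.8 and 78.5 FPKM in GFP-GrxS5, against 61.8, 70.0 and 68.3 FPKM in Col-0 (log2 difference 0.30, SE 0.09; limma adjusted p = 0.0888). XTH19 had 90.6 and 92.9 FPKM in GFP-GrxS5, against 75.1, 77.2 and 71.9 FPKM in Col-0 (log2 difference 0.29, SE 0.07; limma adjusted p = 0.0549). Both lay above all Col-0 libraries without passing, at a log2 difference less than that of XTH24 (1.08). XTH18 and XTH19 were 87.6% identical over their coding sequences, and the split of reads between them is uncertain. The same holds for XTH17 and XTH20, which were 80.8% to 85.6% identical to XTH18 and XTH19. It also holds for the EXLA genes, at 82.3% to 86.0% among themselves. In all, 11 of the 879 pairs were over 80% identical. XTH23 lies 412 bases from XTH14 and had 19.3 and 24.4 FPKM in GFP-GrxS5, against 14.5, 16.8 and 17.0 FPKM in Col-0 (log2 difference 0.41, SE 0.14; limma adjusted p = 0.119). In the row of XTH12, XTH13, XTH25 and XTH22 on chromosome 5, XTH25 was listed at 0 in all libraries. XTH22, the touch-induced gene also called TCH4, had 9.08 and 25.7 FPKM in GFP-GrxS5 and 5.36, 20.0 and 11.3 FPKM in Col-0, with the widest SE of any tested member (log2 difference 0.47, SE 0.54; limma adjusted p = 0.643). The differences between neighbours were not tested.

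**Figure D4:**
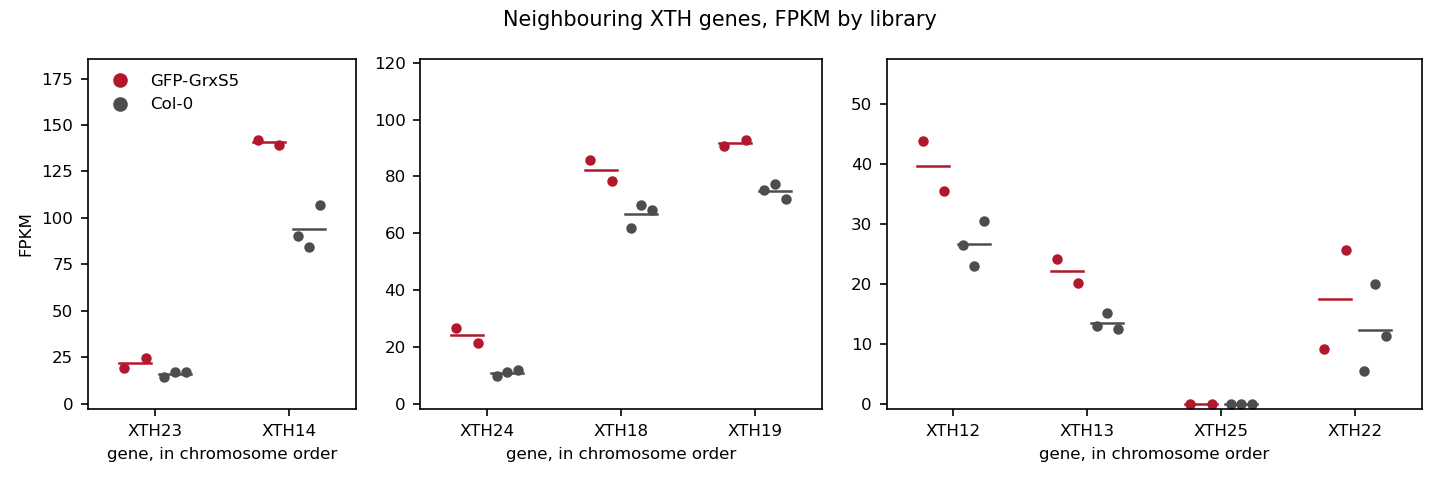
FPKM (y axes) in each library for 3 rows of neighbouring XTH genes, in chromosome order (x axes), with GFP-GrxS5 points left of Col-0 points and lines at the group means. XTH24 has the lowest level and the highest relative difference of its row, XTH25 is at 0, and XTH22 varies within both groups.

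Other wall and growth genes were described from lists of 42 genes, of which 38 were tested, 1 rose and 2 fell, with a median log2 difference of -0.09. Of 11 genes of xyloglucan synthesis, which make the polymer XTHs act on, 0 passed by limma and 1 was lower at an unadjusted p under 0.05, with log2 differences from -0.26 to 0.14. Of 9 tested genes of primary wall cellulose synthesis 0 passed by limma, while 1 was higher and 3 lower at an unadjusted p under 0.05, with log2 differences from -0.40 to 0.17. Among 3 genes of xyloglucan trimming 1 fell: XYL1, an alpha-xylosidase, had 58.0 and 53.9 FPKM in GFP-GrxS5, against 71.9, 70.1 and 69.0 FPKM in Col-0 (log2 difference -0.33, SE 0.08; limma adjusted p = 0.0454). The XYL1 call was lost without any 1 of the 5 libraries (limma adjusted p from 0.0995 to 0.17, and 0.028 to 0.17 across alternatives).

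Among 8 plasma membrane proton pumps, which acidify the wall and so activate expansins, 1 fell by limma. At an unadjusted p under 0.05 in limma, 1 was higher and 1 lower. The higher was AHA3, which did not pass (log2 difference 0.30, SE 0.12, limma adjusted p = 0.172). AHA2, a major pump of roots, had 362 and 298 FPKM in GFP-GrxS5, against 489, 471 and 543 FPKM in Col-0. The groups did not overlap, and it fell by 0.61 (SE 0.10) on the log2 scale (limma adjusted p = 0.0159). The call was lost on leaving out GFP-GrxS5 replicate 2 or Col-0 replicate 3 (limma adjusted p from 0.0515 to 0.0848, and 0.0124 to 0.0848 across alternatives). Among 7 tested growth regulators 1 rose: BES1, a brassinosteroid transcription factor, had 63.1 and 64.9 FPKM in GFP-GrxS5, against 50.9, 48.1 and 51.5 FPKM in Col-0 (log2 difference 0.35, SE 0.08; limma adjusted p = 0.0395). The BES1 call was lost without any 1 of the 5 libraries (limma adjusted p from 0.0857 to 0.148, and 0.0357 to 0.148 across alternatives). The auxin response factor genes ARF7 and ARF19 had log2 differences of -0.17 and -0.30 and did not pass (limma adjusted p = 0.394 and 0.286). LBD16 had the highest log2 difference of this list, 0.49 (SE 0.20), and did not pass either (limma adjusted p = 0.191). At an unadjusted p under 0.05 in limma, 2 growth regulators were higher and 0 lower.

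**Figure D5:**
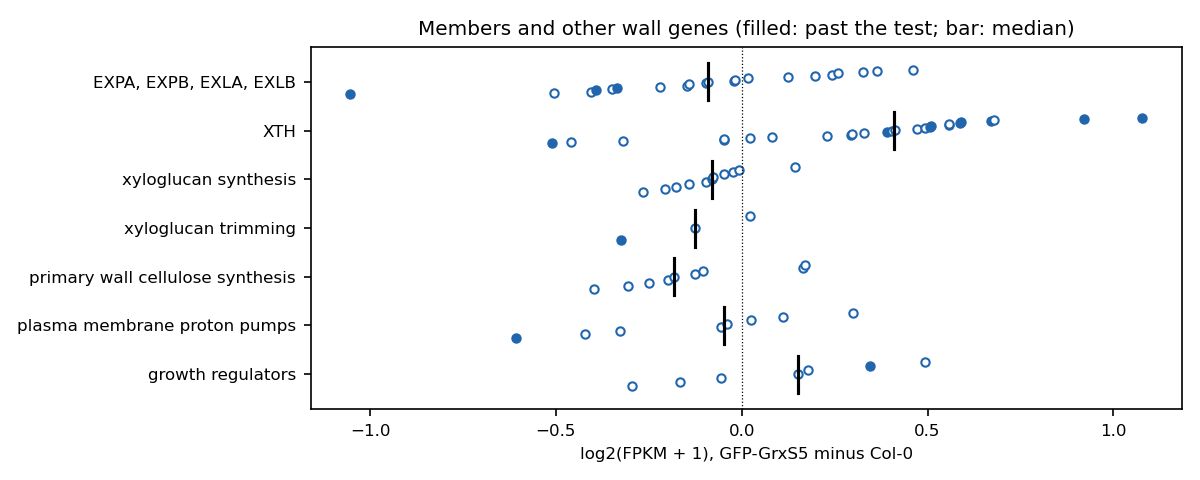
Log2(FPKM + 1) differences, GFP-GrxS5 minus Col-0 (x axis), of tested genes in the expansin and XTH families and in 5 lists of other wall and growth genes. Filled points passed the test and bars are medians, which lie at 0.41 for XTH, at -0.09 for the expansins and between -0.18 and 0.15 for the lists.

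Markers of the cell types in which these genes act were measured in the same libraries. Root hair markers (9 of 9 tested) summed to 283 and 275 FPKM in GFP-GrxS5, against 232, 227 and 251 FPKM in Col-0, with 1 past the test and higher, the wall protein gene PRP3, and 1 higher and 1 lower at an unadjusted p under 0.05. Endodermis markers (7 of 7) summed to 377 and 343 FPKM in GFP-GrxS5, against 294, 297 and 309 FPKM in Col-0, with 1 past the test and higher, CASP5, and 4 higher at an unadjusted p under 0.05. Xylem and secondary wall markers (6 of 6) summed to 264 and 268 FPKM in GFP-GrxS5, against 240.3, 225 and 229 FPKM in Col-0, with 0 past the limma test and 1 higher at an unadjusted p under 0.05. Meristem markers (4 of 4) summed to 25.7 and 23.7 FPKM in GFP-GrxS5, against 33.8, 30.8 and 29.7 FPKM in Col-0, with 0 past the limma test and 1 lower at an unadjusted p under 0.05. Root cap markers (4 of 4) summed to 32.9 and 35.2 FPKM in GFP-GrxS5, against 40.5, 33.8 and 33.6 FPKM in Col-0, with 0 past the limma test and 0 at an unadjusted p under 0.05. A sum mostly follows the most abundant genes of its list. Log2 differences ran from -0.27 to 0.46 for root hair, -0.18 to 0.86 for endodermis and -0.03 to 0.37 for xylem markers. They ran from -0.60 to 0.42 for meristem and -0.40 to 0.12 for root cap markers. Most of the xylem sum came from XCP1 and XCP2 (0.21 and 0.27), while CESA4, CESA7 and CESA8 were at -0.03, 0.05 and -0.02. No defining marker of these 5 lists was at 0 in all libraries. The part of these markers and of the photosynthesis transcripts in the expansin and XTH differences was not tested.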

How the data were processed

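Total RNA of roots was sequenced in 2 GFP-GrxS5 and 3 Col-0 libraries, and groups and replicate numbers come from the sample titles. The authors deposited 1 file of gene FPKM per library, on the genome build TAIR10 per the submitters' processing notes. Aligner, quantification program, strand use and the handling of shared reads were not given in the sources used here.

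Members and gene lists were chosen with earlier results of these data known. Genes were kept where 2 or more of the 5 libraries reached 1 FPKM and every library had status OK. They were compared on log2(FPKM + 1) by limma 3.58.1 in R 4.3.3 with a variance trend, two-sided, with Benjamini-Hochberg adjustment over all 19693 kept genes (threshold 0.05). The residual degrees of freedom were 3. The fit was tested on simulated data. Errors of FPKM are SD over libraries. Named were all members past the threshold, the 5 of each family with the highest mean over the 5 libraries, the 3 highest and 3 lowest differences that did not pass, list genes past the threshold (at most 4 a list). Named outside this rule, after their values were seen, were EXPA1, EXPA11, XTH17, XTH22, XTH21, XTH26, XTH5, XTH10, XTH16, XTH18, XTH19, XTH23, XTH28, XTH32, ARF7 and ARF19. The same holds for LBD16, AHA3, XCP1, XCP2, CESA4, CESA7 and CESA8.

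Depth was estimated from genes with 1 transcript, as the mode of FPKM times length among low values, so fragment numbers are approximate. Coordinates of genes are those of the files, counted from 1. Annotation, promoters and coding sequences come from RefSeq TAIR10.1, whose gene spans equal those of the files for 2 of the 60 members. Coding identity used global alignment in Biopython 1.88. Protein sequences were not used here. Another promoter sequence is not reported here.

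Alternatives were pseudocounts of 0.1 and 0.5, no filter, a 5 FPKM filter, 2 other scalings (quantile normalization and median of ratios), no variance trend, the replicate number as a block, and each library left out in turn. The block fit and the fit without Col-0 replicate 3 give the same log2 differences, so they are not separate checks of size or direction.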

Additional observations from a re-analysis of the deposited data

How the results depend on the processing

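Of 377 values of 29 named genes under the alternatives, 289 kept their direction and side of the threshold, 80 lost their call, 5 gained one and 3 changed sign: EXLA2 without Col-0 replicate 2 (0.0021) and without GFP-GrxS5 replicate 2 (0.050), and XTH8 without GFP-GrxS5 replicate 2 (-0.024), none of them called. The 29 genes are those named by the rule, and only the 12 called members, XYL1, AHA2 and BES1 had a call to lose. Without a variance trend, 398 of all genes were higher and 184 lower, with 2 and 1 among expansins and XTHs and 0 and 0 among the other wall genes. No filter on low values gave 5 higher members, and quantile normalization 0 higher wall genes. Without the filter XTH4, XTH7, XTH27 and XTH31 lost their calls. Quantile normalization ended those of XTH4 and XTH27, and median of ratios that of XTH4. Of the members called, only EXPA15, XTH15 and XTH24 kept the call without a variance trend. With the replicate block these kept it, as did XTH14 and XTH30.

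With each library left out in turn, all genes higher ran from 225 to 585 and lower from 141 to 235, members higher from 1 to 6 and lower from 1 to 4, wall genes higher 0 in every case and lower from 0 to 1, the expansin median from -0.084 to -0.023 (highest without GFP-GrxS5 replicate 1) and the XTH median from 0.37 to 0.45, the EXLA2 difference from -0.24 to 0.050 and the XTH8 difference from -0.024 to 0.19. The cause was not tested, beyond the fewer libraries. A group left with 1 library was assumed to vary like the other.

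With the replicate number as a block, 418 genes were higher and 176 lower, 5 and 1 of them members (XTH12 among them) and 0 and 0 wall genes. Only Col-0 has a replicate 3, so the block took up that library whole. The log2 differences of this fit therefore equal those without Col-0 replicate 3 (EXPA15 at -1.10 in both), and Col-0 replicate 3 adds nothing to them. Deviations of same-numbered libraries had correlations of -0.04 and -0.01 over tested genes for the 2 pairs. The deviations of the 2 GFP-GrxS5 libraries from their group mean are exact opposites, and a shared effect on some genes could be missed. These correlations therefore cannot decide whether same-numbered libraries share more than a number. At about 3240000 to 4310000 fragments, members under 1 FPKM rest on few fragments.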
